A study of Mus musculus with 24 samples.

Results

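The genes described here are 35 genes of fatty acid uptake and oxidation, measured by RNA-seq in the left ventricle of mice with angiotensin II-induced left ventricular hypertrophy (LVH). They were chosen by gene symbol as a fixed list, and all 35 were found among the 14912 genes of the deposited table. Male wild-type C57BL/6J mice of 2 groups were compared. In the hypertensive-LVH group 12 mice received 7 days of angiotensin II (ANG II) from osmotic pumps under the skin, at a dose of 1500 ng/kg/min, and in the control group 12 mice received saline in the same way. No age is stated, the hearts of both groups were rinsed with saline before the ventricle was taken, and each sample is whole ventricular tissue from 1 animal. Values are given as FPKM, that is fragments of a gene scaled by transcript length and by all mapped fragments of the sample. They were later adjusted gene by gene, as described below, so levels of different genes, and sums over genes, can be compared only roughly.

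The heart obtains most of its ATP by oxidising long-chain fatty acids. Fatty acids are released from lipoproteins at the vessel wall, taken up, bound and activated to acyl-CoA, passed into the mitochondrion as carnitine esters, and then shortened by repeated rounds of dehydrogenation, hydration, dehydrogenation again and thiolysis, while extra enzymes move or remove the double bonds of unsaturated chains. The nuclear receptors of the PPAR and ERR families, with the coactivator PGC-1, are the best known activators of these genes, and a lower expression of the pathway is a long described feature of the pressure-loaded heart.

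The deposited values carry an adjustment that bears on every result. Gene by gene, they had been shifted and scaled within 4 sets, each of 3 control and 3 ANG II mice. Set 1 holds samples 1 to 3 of each group, set 2 those numbered 4 to 6, set 3 those numbered 7 to 9, and set 4 the rest. The spacing of the values was solved with 1 group difference per gene, shared by the 4 sets and left unscaled. The group labels thus entered the step, and a difference could change sign. For Eci2 in set 4, ANG II minus control was 0.553 FPKM before it and -0.02 on the log2 scale as deposited. Of the deposited values 0.766% were negative, none of them a value of a member. Differences within a set before this step could be recovered from the spacing of the values for 13723 of 14026 tested genes and for all 35 members, and they are given beside the deposited values; the offset of a set against the other sets was not recovered. The tissue label, left ventricle, was followed, although the extraction text in the labels names a different cell material. None of the 12 cardiomyocyte markers had a value of 0 or below in any sample. Tnni3, cardiac troponin I, had a control mean of 6458 FPKM. Such markers show heart muscle RNA but cannot tell left ventricle from other heart material. The number of reads per sample is unknown.

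Fatty acid oxidation genes were lower in the hypertensive-LVH group. Of the 35 members, 23 were called lower and 0 higher (limma, adjusted p under 0.05), while among all 14026 tested genes 12.6% were lower and 20.9% higher. The median log2 fold change of the members was -0.25, against 0.05 for all tested genes, where a log2 fold change is the difference between group means on the log2(FPKM + 1) scale. A negative fold change was found for 31 members and a positive one for 4, none of which was called. At the thresholds of the study for DEGs (adjusted p under 0.05 and an absolute log2 fold change over 0.5), 5 members were lower, namely Etfb, Ech1, Ucp3, Hadh and Acaa2, against 1.40% of all tested genes lower and 4.52% higher. The groups of no member were fully apart; all ANG II samples lay below all control samples in 0.485% of tested genes. The 12 ANG II samples all lay below the control median in 15 of the 23 called members, 11 of them did in 7, and 10 in Etfdh. In sum over the members, 15813 ± 1606 FPKM (SD, n = 12) in the control group stood against 13812 ± 1518 FPKM in the hypertensive-LVH group, or 3.09% and 2.83% of all FPKM.

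Rescaling the samples changed the balance of all genes more than that of the members. With quantile normalization 20.8% of tested genes were lower and 13.7% higher, and 21 members were lower and 1, Fabp3, was higher. With median-ratio scaling 8 members passed the thresholds of the study, against 1.98% of tested genes, the further ones being Mlycd, Acads and Eci1. In ventricular tissue, fewer cells of a type and less RNA per cell cannot be told apart.

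**Figure D1:**
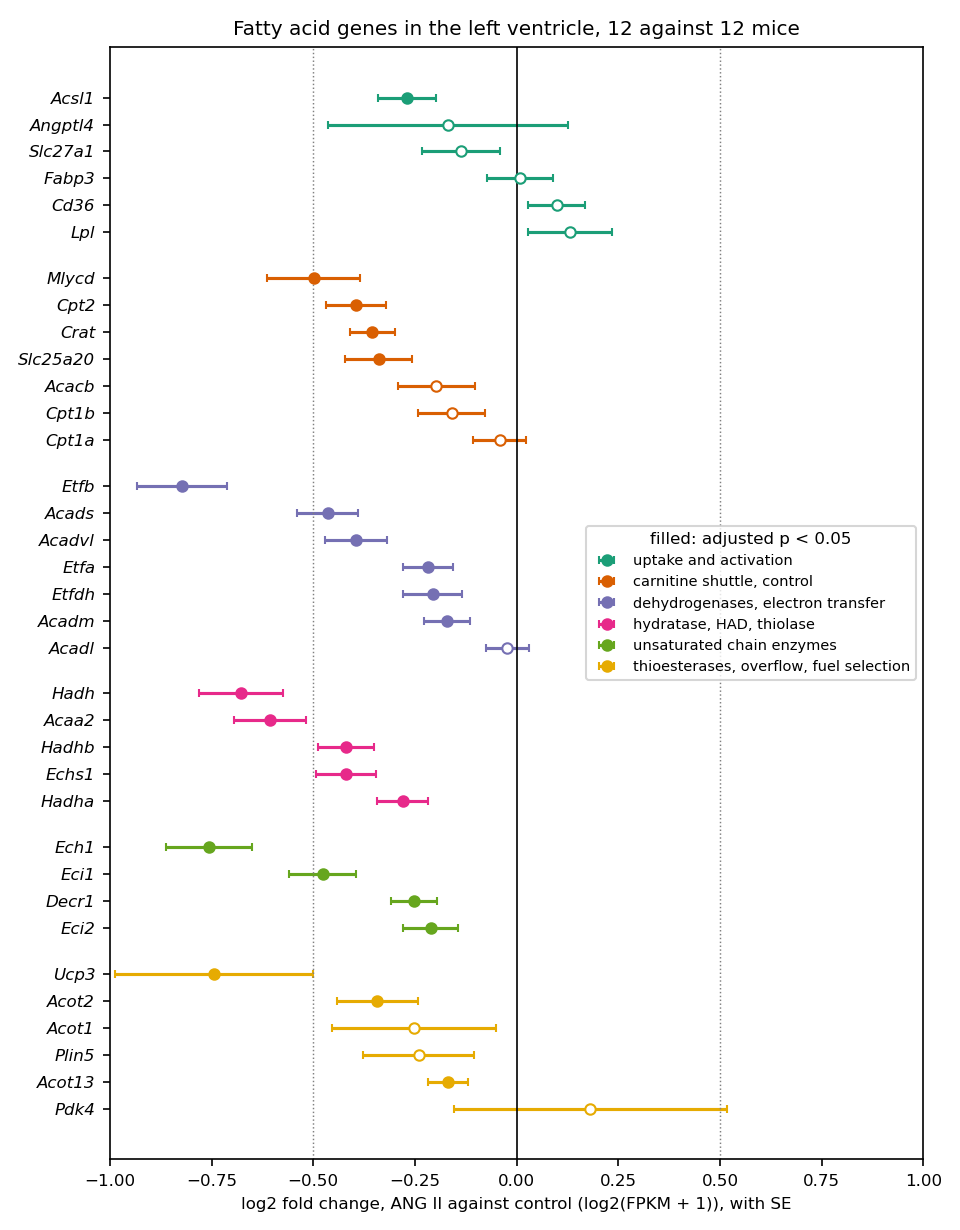
Log2 fold change of each of the 35 members between 12 ANG II and 12 control mice, on the log2(FPKM + 1) scale, with its SE; members are ordered within their role, filled points have an adjusted p under 0.05 and dotted lines mark 0.5 in each direction. The 23 filled points all lie left of 0, and the uptake genes hold 1 of them.

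Uptake and activation genes had a median log2 fold change of -0.06, the nearest to 0 of the 6 roles, and 1 of 6 was called lower. That gene was Acsl1, the long-chain acyl-CoA synthetase that commits fatty acids to the acyl-CoA pool. Its FPKM ran from 316 through a median of 363 to 441 in control mice and from 257 through 305 to 390.0 in ANG II mice. The groups overlapped, but 11 of 12 ANG II samples were below the control median, and the log2 fold change was -0.27 (SE 0.07, adjusted p = 0.00571 by limma).

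Cd36, the fatty acid translocase of the plasma membrane, was not called. In control mice it lay between 399.7 and 532 FPKM (median 458), and in ANG II mice between 394 and 689.8 (median 494). ANG II samples 6, 8 and 12 lay above all controls, sample 12 furthest, and 9 of 12 ANG II samples lay above the control median. The groups otherwise overlapped, and the log2 fold change was 0.10 (SE 0.07, adjusted p = 0.280 by limma). Fabp3, the fatty acid-binding protein of heart muscle, was the most abundant member, with 4177 ± 551 FPKM in the control group and 4195 ± 516 in the hypertensive-LVH group (SD, n = 12). Its log2 fold change was 0.01 as deposited (adjusted p = 0.955) and 0.20 after quantile normalization (adjusted p = 0.0161, both by limma). Lpl, the lipoprotein lipase that frees fatty acids at the endothelium, Slc27a1, a fatty acid transport protein, and Angptl4, an inhibitor of lipoprotein lipase, had log2 fold changes of 0.13, -0.14 and -0.17, none of them called. Angptl4 was the most uneven of the 6, from 5.06 to 32.9 FPKM in control mice and from 5.32 to 29.2 in ANG II mice.

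In the carnitine shuttle, the enzymes at and beyond the inner membrane fell and the entry step did not pass the test. Cpt1b, the muscle form of carnitine palmitoyltransferase 1 on the outer membrane, ran from 200.4 through a median of 252 to 313 FPKM in control mice and from 169 through 216 to 307 in ANG II mice. Most of these 2 ranges was shared, and the log2 fold change was -0.16 (SE 0.08, adjusted p = 0.136 by limma); without ANG II sample 10 it was -0.20 and called (adjusted p = 0.0469). Cpt1a, the liver form, was less abundant than Cpt1b, with a control mean of 24.3 ± 2.38 FPKM against 254 ± 27.9, and its log2 fold change was -0.04 (adjusted p = 0.636).

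Cpt2, which reforms acyl-CoA inside the mitochondrion, fell from 160.0 ± 18.6 to 122 ± 15.7 FPKM (SD, n = 12). All 12 ANG II samples were below its control median, and the log2 fold change was -0.40 (SE 0.07, adjusted p = 2.97e-04 by limma). Slc25a20, the carnitine-acylcarnitine carrier of the inner membrane, and Crat, the carnitine acetyltransferase that buffers acetyl-CoA, fell by 0.34 and 0.35 on the log2 scale. Malonyl-CoA blocks the entry step, and of the pair of enzymes that set its level, Mlycd, which breaks it down, fell by 0.50 on the log2 scale (adjusted p = 0.00184). Acacb, which makes it, had a log2 fold change of -0.20 that was not called (adjusted p = 0.110, both by limma).

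Of the acyl-CoA dehydrogenases and the proteins that carry their electrons to the respiratory chain, 6 of 7 fell. The largest change of all 35 members was that of Etfb, the beta subunit of the electron transfer flavoprotein that accepts electrons from every acyl-CoA dehydrogenase. In control mice Etfb ran from 381 through a median of 586 to 676 FPKM, and in ANG II mice from 226 through 317 to 428. Only control sample 2 was as low as the ANG II samples, 4 of which lay above it. The log2 fold change was -0.82 (SE 0.11, adjusted p = 9.07e-06 by limma), or a level 43.5% lower.

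Etfa, the partner subunit of Etfb, fell by 0.22 on the log2 scale (SE 0.06), from 364 ± 36.2 to 313 ± 34.2 FPKM (SD, n = 12). Etfdh, which hands the electrons to ubiquinone, had a log2 fold change of -0.21 and was the least firm call of the 23 (adjusted p = 0.0326 by limma); the call was lost when ANG II sample 5, 6, 7 or 11 or control sample 1, 4 or 5 was left out (adjusted p from 0.0507 to 0.0589), and the adjusted p was 0.0672 in an exact permutation test within the sets.

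The 4 dehydrogenases, each for another chain length, differed in log2 fold change from -0.46 to -0.02. Acads, for short chains, had the largest change of the 4, at -0.46 (SE 0.07), and Acadvl, for very long chains, followed at -0.40 (SE 0.08). Acadm, for medium chains, ran from 563 through a median of 674 to 816 FPKM in control mice and from 524 through 596 to 717 in ANG II mice. The 2 groups shared much of their range, and the log2 fold change was -0.17 (SE 0.06, adjusted p = 0.0231 by limma). Acadl, for long chains, stood at 535 ± 42.9 FPKM in the control group and 527 ± 46.7 in the hypertensive-LVH group (SD, n = 12), with a log2 fold change of -0.02 (SE 0.05, adjusted p = 0.760).

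Within each sample, Acadl thereby stood higher relative to Acadvl. The log2 ratio of Acadl to Acadvl was 0.04 ± 0.11 in control mice and 0.41 ± 0.17 in ANG II mice (SD, n = 12), and 12 of 12 ANG II samples lay above the control median. Likewise Cpt1b to Cpt2 went from 0.67 ± 0.11 to 0.91 ± 0.16, and Cd36 to Hadha from -0.35 ± 0.13 to 0.02 ± 0.25, each with 11 of 12 ANG II samples above the control median. These 3 pairs were chosen after their values were seen, so the p-values computed for them are no support and are not given. A ratio within a sample does not depend on how whole samples are scaled against each other. It does depend on the adjustment of the deposited values, which treated each gene separately.

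The windows of 250 bases before the RefSeq start are shown for Etfb, as the member with the largest change, and for Acadm and Acadvl, as members that fell and whose windows hold the nuclear receptor half-site AGGTCA, read on both strands and printed in capitals. All 3 lie outside the transcribed part of their gene in GENCODE vM21. They are from RefSeq on GRCm38.p6, and the build used by the authors is not given in the sources used here. Etfb is on the plus strand of chromosome 7 (window chr7:43443822-43444071, gene chr7:43444083-43457800), Acadm on the minus strand of chromosome 3 (window chr3:153944644-153944893) and Acadvl on the minus strand of chromosome 11 (window chr11:70015429-70015678).
Etfb: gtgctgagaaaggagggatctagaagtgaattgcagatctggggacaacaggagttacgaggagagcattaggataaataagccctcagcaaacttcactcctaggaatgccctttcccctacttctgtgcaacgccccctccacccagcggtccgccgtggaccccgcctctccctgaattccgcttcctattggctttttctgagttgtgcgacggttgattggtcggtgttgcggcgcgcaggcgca
Acadm: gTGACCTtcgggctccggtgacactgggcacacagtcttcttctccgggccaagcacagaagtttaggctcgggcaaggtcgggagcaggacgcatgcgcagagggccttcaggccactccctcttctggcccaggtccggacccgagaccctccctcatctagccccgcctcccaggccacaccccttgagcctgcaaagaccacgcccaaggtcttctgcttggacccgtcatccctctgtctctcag
Acadvl: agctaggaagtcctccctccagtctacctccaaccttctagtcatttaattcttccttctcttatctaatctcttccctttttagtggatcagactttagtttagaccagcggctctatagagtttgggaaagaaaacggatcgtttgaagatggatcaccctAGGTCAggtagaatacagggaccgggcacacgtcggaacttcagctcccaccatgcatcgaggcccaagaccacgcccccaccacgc
Windows were found for 28 of 35 members, 32 windows in all since some genes have more than 1 start. The half-site was in 7 of them (Acadm, Acadvl, Cd36, Cpt1a, Echs1, Plin5 and Ucp3), or 21.9% of 32 member windows, against 14.0% of the 32851 windows of all genes. Of these 7, Acadm, Acadvl, Echs1 and Ucp3 fell and Cd36, Cpt1a and Plin5 were not called, so members with and without it were found on both sides. The longer forms AGGTCANAGGTCA (a direct repeat with 1 base between) and TCAAGGTCA, which both contain the half-site, were in 0 member windows and in 11 and 127 windows of all genes.

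The reactions after the first dehydrogenation were lower throughout, with 5 of 5 members called. Hadh, the short-chain hydroxyacyl-CoA dehydrogenase, had the largest of these changes. Its FPKM ran from 259 through a median of 382 to 474 in control mice and from 170.2 through 244 to 327 in ANG II mice. All 12 ANG II samples lay below the control median, and the log2 fold change was -0.68 (SE 0.10, adjusted p = 3.42e-05 by limma). Acaa2, the mitochondrial thiolase of the last step, ran from 410.3 through 575 to 679 FPKM in control mice and from 275 through 380.4 to 492 in ANG II mice. Only control sample 2 reached down into the ANG II range, and the log2 fold change was -0.61 (SE 0.09, adjusted p = 2.17e-05 by limma).

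For comparison with Etfb, the window of Hadh (minus strand, chr3:131272102-131272351) is shown, the member with the second largest change among those whose window lies outside their gene; it holds no half-site.
Hadh: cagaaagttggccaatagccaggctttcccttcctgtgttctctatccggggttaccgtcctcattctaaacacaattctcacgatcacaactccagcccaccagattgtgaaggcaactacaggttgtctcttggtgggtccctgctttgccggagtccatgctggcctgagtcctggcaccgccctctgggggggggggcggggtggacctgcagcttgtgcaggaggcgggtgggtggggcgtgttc

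Echs1, the short-chain enoyl-CoA hydratase, fell by 0.42 on the log2 scale (SE 0.07). Hadha and Hadhb encode the alpha and beta subunits of the trifunctional protein, which takes long chains through the same reactions, and their genes lie head to head on chromosome 5 with RefSeq starts 273 bases apart, so that their windows share 228 bases. Hadha ran from 471 through a median of 598 to 699 FPKM in control mice and from 390.5 through 499 to 549 in ANG II mice. All 12 of its ANG II samples were below the control median, with a log2 fold change of -0.28 (SE 0.06, adjusted p = 0.00155 by limma). Hadhb went from 873 ± 107 to 651 ± 68.8 FPKM (SD, n = 12), with a log2 fold change of -0.42 (SE 0.07, adjusted p = 7.37e-05).

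All 4 enzymes for unsaturated chains fell. Ech1, which shifts conjugated double bonds, was the third most abundant member in control mice, where it ran from 897 through a median of 1245 to 1588 FPKM, against 492 through 759 to 1068 in ANG II mice. Control sample 2 alone lay within the ANG II range, and 2 ANG II samples lay above it. The log2 fold change of Ech1 (chr7:28825217-28832247 in GENCODE vM21) was -0.76 (SE 0.11, adjusted p = 1.34e-05 by limma), or 40.8% lower. Eci1, the main mitochondrial enoyl-CoA isomerase, fell by 0.48 on the log2 scale, Decr1, the dienoyl-CoA reductase, by 0.25, and Eci2, a second isomerase shared with peroxisomes, by 0.21.

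**Figure D2:**
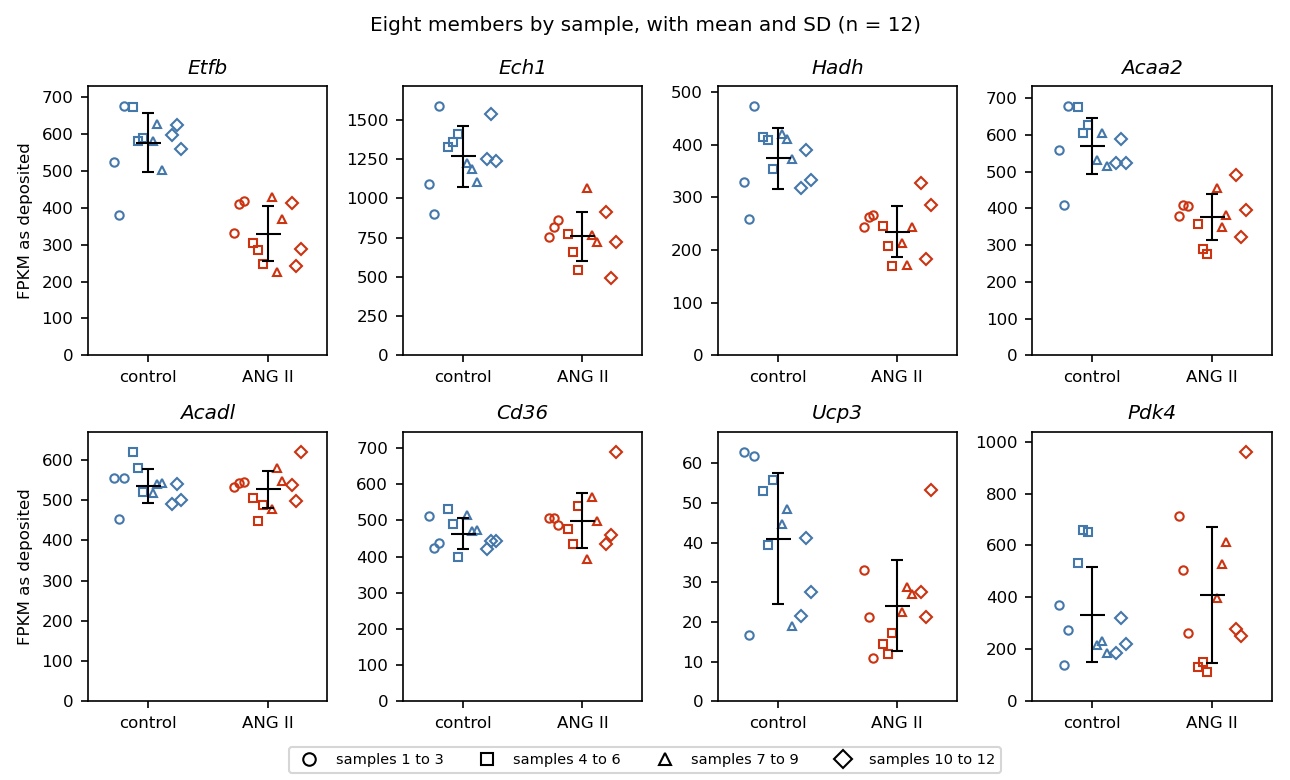
FPKM as deposited in each of the 24 samples for 8 members, with mean and SD (n = 12) in black and the marker shape giving the set of samples. Etfb, Ech1, Hadh and Acaa2 lie lower in ANG II mice with little overlap. Acadl and Cd36 overlap widely, with some ANG II samples of Cd36 above all controls. In Pdk4 the samples of set 2 (squares) are the highest controls and the lowest ANG II samples.

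Among thioesterases, overflow and fuel selection genes, 3 of 6 fell and the spread between mice was wide. Ucp3, the mitochondrial uncoupling protein of muscle, ran from 16.7 through a median of 43.0 to 62.9 FPKM in control mice and from 10.9 through 21.9 to 53.3 in ANG II mice. Of its ANG II samples, 11 lay below the control median, although both groups covered most of the range. The log2 fold change of -0.74 (SE 0.24, adjusted p = 0.0215 by limma) was the third largest in size but among the least firm calls: the adjusted p was 0.0558 by a Wilcoxon rank-sum test and 0.298 without set 2. Its window (plus strand, chr7:100472741-100472990) is shown because it is the only member window with 2 half-sites, the nearer one 38 bases before the start.
Ucp3: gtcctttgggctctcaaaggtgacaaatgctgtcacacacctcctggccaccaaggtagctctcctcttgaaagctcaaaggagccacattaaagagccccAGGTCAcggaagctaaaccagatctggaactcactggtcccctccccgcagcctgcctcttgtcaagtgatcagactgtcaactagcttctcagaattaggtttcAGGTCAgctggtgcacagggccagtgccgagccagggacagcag

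Acot2, a mitochondrial thioesterase that splits acyl-CoA into free fatty acid, fell by 0.34 on the log2 scale (SE 0.10), and Acot13, another thioesterase, by 0.17 (SE 0.05). Acot1, the cytosolic relative of Acot2, had the lowest control mean of the members (14.2 FPKM, against 14.5 for Angptl4), from 7.22 through a median of 15.0 to 19.9 FPKM in control mice and from 5.81 through 10.5 to 32.5 in ANG II mice. All but 2 of its ANG II samples were below the control median, but ANG II sample 12 was the highest of all, and the log2 fold change of -0.25 (SE 0.20) was not called (adjusted p = 0.344 by limma). Plin5, which tethers lipid droplets to mitochondria, had a log2 fold change of -0.24 that was not called (adjusted p = 0.173).

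Pdk4, the kinase that turns off pyruvate dehydrogenase and so favours fatty acids over glucose, was the member with the widest spread on the log2 scale. It ran from 141 through a median of 253 to 660.2 FPKM in control mice and from 112 through 337 to 961 in ANG II mice. The ANG II range was wider on both sides, with 2 samples above and 2 below all controls, and the groups otherwise overlapped, with a log2 fold change of 0.18 (SE 0.34, adjusted p = 0.699 by limma). This value averages opposite differences: ANG II minus control was 0.91, -2.22, 1.26 and 0.78 on the log2 scale in sets 1, 2, 3 and 4. The 3 controls of set 2 (533, 660.2 and 650.3 FPKM) were the highest of the control group, and the 3 ANG II samples of that set (133, 149.8 and 112 FPKM) the lowest of theirs. Before the adjustment the differences in FPKM had the same signs, at 262, -482, 180.1 and 293. The difference between sets passed an interaction test (limma F test, adjusted p = 0.00231), as it did for 7.49% of tested genes. Without set 2 Pdk4 was called higher, with a log2 fold change of 0.98 (adjusted p = 0.00804).

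Acacb was the other member whose difference varied between sets (limma F test, adjusted p = 0.0337), with log2 differences of 0.07, -0.79, -0.09 and 0.02 in sets 1, 2, 3 and 4. No other member passed this test. The median log2 difference of the members was -0.15, -0.69, -0.24 and -0.07 in sets 1, 2, 3 and 4. A lower mean in ANG II mice was found for 28, 33, 31 and 23 members in these sets.

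**Figure D3:**
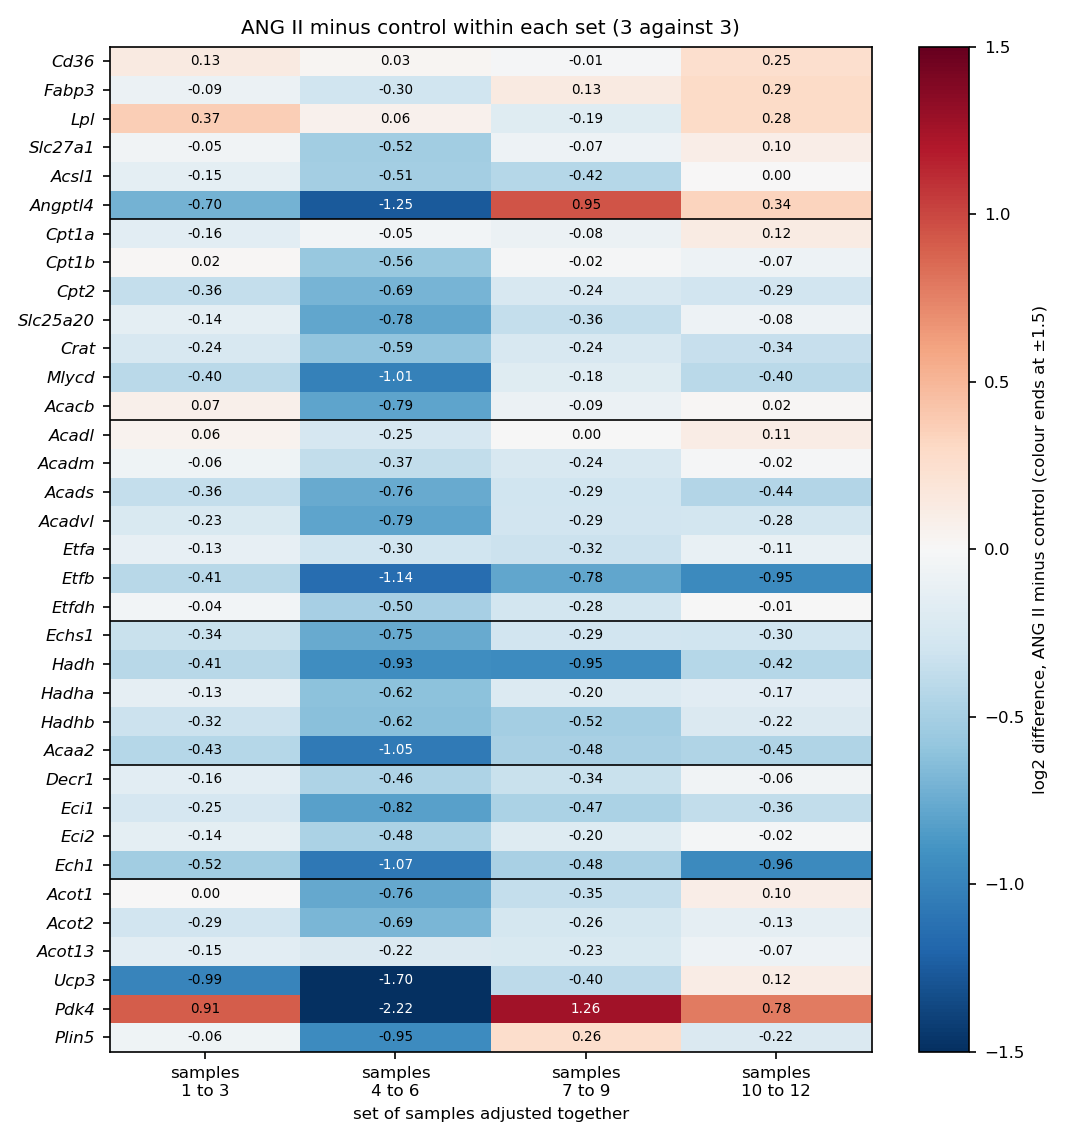
Log2 difference, ANG II minus control, of each member within each set of 3 against 3 samples, with members in rows by role, sets in columns, and blue for lower and red for higher in ANG II mice. The second column, set 2, is the darkest, and Pdk4 is the row with the strongest contrast, at -2.22 in set 2 and 0.78 to 1.26 elsewhere.

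The pattern was also read with set 2 left out. This is no direct measure of the part of set 2, since the group difference kept in the adjustment was shared by all 4 sets. With the 6 samples of set 2 left out, 12 members were called lower and 1 (Pdk4) higher, where 11.7% of tested genes were lower and 8.40% higher. The 12 were Cpt2, Crat, Acads, Acadvl, Etfb, Echs1, Hadh, Hadhb, Acaa2, Decr1, Eci1 and Ech1, that is 2 of the carnitine shuttle, 3 of the dehydrogenases and electron carriers, 4 of the hydratase and thiolase group and 3 of the unsaturated chain enzymes, and none of the uptake or overflow genes. The median log2 fold change of the members was then -0.18. Fibroblast markers also differed most in set 2: 6 of 10 were higher in ANG II mice over all samples, with a median log2 difference of 2.85 in set 2 and of 0.24 to 0.32 in the other sets. Red blood cell markers had a median log2 difference of 1.25 in set 2 and of 2.87 in set 4. The lowest controls among the fibroblast markers were at or below 0 (Col1a1, Col1a2 and Col3a1 in 3 samples each). These were the controls of set 2, and with them set to 0 the log2 differences of that set were 8.77, 8.40 and 9.32. Before the adjustment Col1a1 differed by 14.5, 499, 203 and 89.0 FPKM in sets 1, 2, 3 and 4. The sum of the fibroblast markers ran from 102 to 1189 FPKM in control mice and from 857 to 3022 in ANG II mice, and their part in the result was not tested.

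Before the adjustment, 18 members were lower and 0 higher (exact permutation of the group labels within the sets on mean FPKM differences, adjusted p under 0.05 over 13723 genes), where 10.4% of genes were lower and 17.9% higher. The 5 members called by limma in the deposited values but not by this test before the adjustment were Acsl1, Etfdh, Eci2, Acot2 and Ucp3. The test and the scale changed here along with the values. By exact permutation within the sets on the deposited log2 values, Etfdh (adjusted p = 0.0672) and Ucp3 (adjusted p = 0.0598) were not called either. Acsl1, Eci2 and Acot2 were called by that test. In 19 members the ANG II mean was lower in each of the 4 sets before the adjustment, which held for 12.8% of genes. For Etfb these differences were -126, -343, -214 and -268 FPKM. For Ech1 they were -316, -674, -379 and -628 FPKM, and for Hadh -87.0, -179.7, -168 and -83.8 FPKM. The share of all genes that were lower in ANG II mice before the adjustment was 58.1%, 25.4%, 46.5% and 40.7% in the 4 sets. The members lower before the adjustment numbered 29, 33, 29 and 21 in sets 1, 2, 3 and 4. Set 2 had the smallest share of lower genes and the most lower members before the adjustment. On the deposited log2 scale it also had the most negative median of the members.

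Members also varied together between mice of the same group and set. After the mean of each group in each set was removed (8 means over 24 samples), the median Pearson r over 595 pairs of members was 0.58, against 0.02 over pairs of 4685 other genes expressed at least as highly as the lowest member, and 59.3% of member pairs had an r above 0.5 against 13.4% of the other pairs. These are descriptions over samples that share depth, RNA quality and the adjustment. The highest r was that of Acadm with Etfa (0.95), followed by Acadvl with Acaa2 (0.94) and Hadh with Eci1 (0.93). Etfa and Etfb, subunits of the same protein, had an r of only 0.12 with each other. Etfa varied with Acadl (0.92), Etfdh (0.93) and Cd36 (0.85), whereas Etfb varied with Eci1 (0.90), Echs1 (0.88) and Acads (0.82), and its r with Cd36 was -0.33. Cpt1a, Lpl, Cd36 and Angptl4 had the lowest median r with the other members, at -0.14, 0.10, 0.18 and 0.19. Ucp3 and Pdk4 had an r of 0.81, and Pdk4 and Angptl4 of 0.37.

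**Figure D4:**
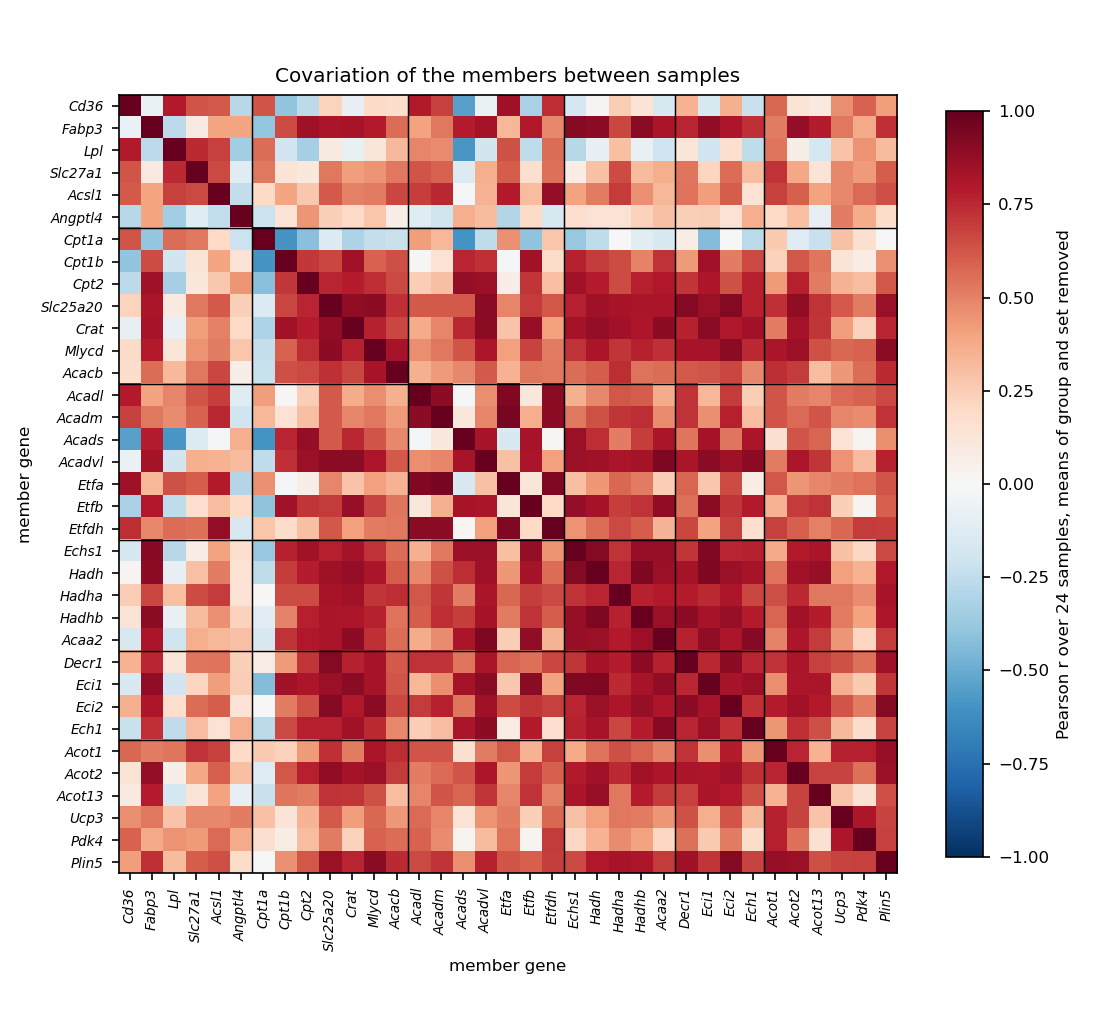
Pearson r between each pair of the 35 members over 24 samples after removal of the mean of each group in each set, on log2(FPKM + 1), with lines between roles. Many pairs of beta-oxidation enzymes in the middle are dark red, but Acads is pale with Acadl, Acadm, Etfa and Etfdh (r from -0.15 to 0.11). The rows of Cd36, Lpl, Angptl4 and Cpt1a hold many pale or blue cells. Cd36 is nevertheless red with Etfa (0.85), Lpl (0.79) and Acadl (0.79).

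The genes around the pathway were read from lists of the same kind. Of 16 other mitochondrial beta-oxidation genes 8 were lower and 2 higher (median log2 fold change -0.19); the largest fall was that of Hsd17b10, which acts on branched and short chains (-0.47), and the largest rise that of Cpt1c, the brain form of Cpt1 (0.50), which was barely expressed at a control mean of 1.54 FPKM. Of 17 peroxisomal oxidation genes 6 were lower and 0 higher, with Amacr, a racemase of branched chains, at -0.42. Among 16 other uptake and activation genes 4 were lower and 4 higher, with Slc22a5, the carnitine importer, at -0.35 and Fabp4, the fatty acid-binding protein of adipocytes and endothelium, at 0.29. Lipid droplet and lipolysis genes were lower in 5 of 15 and higher in 1, and fatty acid synthesis genes lower in 3 of 14 and higher in 2.

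Of 21 regulators of fatty acid oxidation, 5 were lower and 1 higher. Rxrg, a retinoid X receptor that pairs with PPARs, fell by 0.62 on the log2 scale (adjusted p = 6.65e-05), and Sirt3, the mitochondrial deacetylase, by 0.49 (adjusted p = 3.03e-05, both by limma). The other 3 that fell were Esrra, Rxra and Perm1, and the one that rose was Prkag2, an AMP kinase subunit (0.34). Ppara and Ppargc1a, which encode PPAR-alpha and PGC-1-alpha, had log2 fold changes of -0.05 (SE 0.14) and 0.27 (SE 0.25), neither called (adjusted p = 0.790 and 0.424 by limma). For both, the difference varied between sets (adjusted p = 0.00341 and 0.00426 by the limma F test). The log2 differences in sets 1, 2, 3 and 4 were 0.94, -0.60, -0.31 and -0.25 for Ppara. For Ppargc1a they were 1.59, -1.30, 0.62 and 0.17. Set 2 gave the lowest and set 1 the highest value of each. Esrra, Rxra, Perm1, Ppara and Ppargc1a are named here after their values were seen.

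Oxidative genes next to the pathway were lower as well. Of 74 respiratory chain subunits 72 were lower and 0 higher, with a median log2 fold change of -0.40, and of 14 citrate cycle genes 12 were lower and 0 higher, with a median of -0.28. Cox7a1, the muscle form of a cytochrome c oxidase subunit, fell by 1.21 on the log2 scale, more than any member. Of 18 genes of mitochondrial membranes, import and mass, 12 were lower and 0 higher. The 31 glycolysis and glucose uptake genes moved both ways, 13 lower and 6 higher, with Ldhb at -0.58, Pfkfb1 at -0.77, Pfkp at 0.52 and Pdk3 at 0.49. Without set 2, 62 respiratory chain subunits, 9 citrate cycle genes and 7 glycolysis genes were lower.

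**Figure D5:**
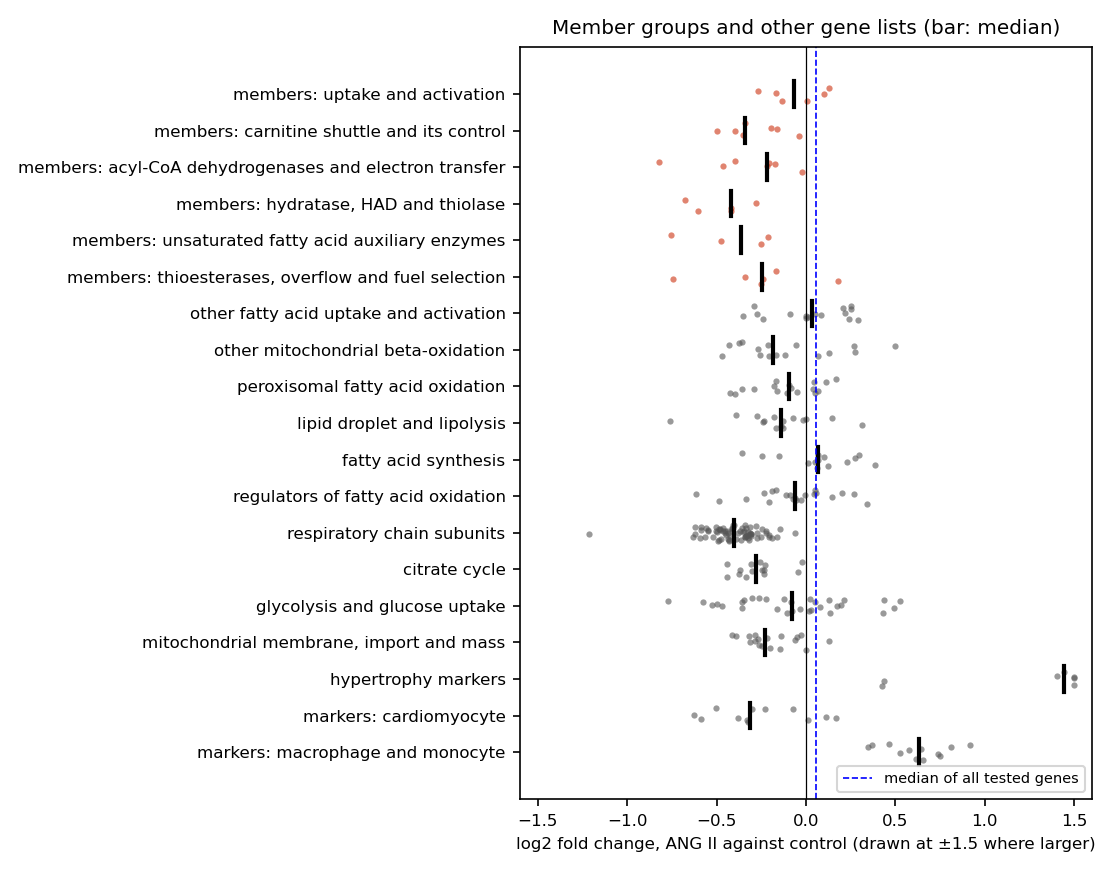
Log2 fold change of every tested gene of each list (points, values past 1.5 drawn at 1.5) and the median of the list (bar), with the member groups in red, other lists in grey and the median of all tested genes as a dashed line. Respiratory chain subunits lie left of 0 with a median of -0.40, uptake lists straddle 0, and hypertrophy and macrophage markers lie to the right.

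Markers of cell types moved in the same comparison. Of 12 cardiomyocyte markers 6 were lower and 0 higher, with a median log2 fold change of -0.31 as deposited and -0.01 after quantile normalization, and their sum ran from 44004 to 64486 FPKM in ANG II mice and from 58414 to 78869 in control mice. Of 12 macrophage and monocyte markers 11 were higher and 0 lower, their sum running from 375 to 1094 FPKM in ANG II mice and from 278 to 627 in control mice, and Ly6c2 was at or below 0 in 2 samples. Without set 2, 0 of these 12 markers were called higher. Their median log2 fold change was then 0.45, against 0.63 over all samples, and the set medians were largest in sets 2 and 3. Before the adjustment 11 of the 12 were higher, with set 2 included. Among 10 endothelial markers 1 was higher and 1 lower. White adipocyte markers were near 0 (sum 2.76 to 69.7 FPKM in ANG II mice and -9.09 to 56.6 in control mice), and Ucp1, the defining brown adipocyte marker, was at or below 0 in 16 samples. Of the brown adipocyte list 2 genes were higher, Cidea (0.31) and Ppp1r3c (0.25), and 2 were lower, Cox7a1 and Prdm16 (-0.23). Red blood cell markers were higher in 5 of 6, their sum running from 779 to 6445 FPKM in ANG II mice and from 56.3 to 2949 in control mice, smooth muscle and pericyte markers were higher in 3 of 9 and lower in 2, and skeletal muscle markers higher in 2 of 8 and lower in 3. As a check of the model, 6 of 7 hypertrophy markers were higher, among them Acta1, skeletal alpha-actin, at 1.96. Before the adjustment 4 of the 7 were higher. Nppa, at or below 0 in 7 samples as deposited, was then not called (adjusted p = 0.329 by exact permutation within the sets). The part of these cell types in the fall of the members was not tested.

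Some members share sequence with other genes, and the counting could have divided or joined their fragments. In GENCODE vM21 transcripts, 81.0% of the 31-base words of Cpt1b also occur in Gm44502, 61.2% of those of Hadhb in Gm13910, 62.0% of those of Etfb in Gm45233 and 35.2% of those of Fabp3 in Fabp3-ps1, none of which is in the table. Acot1 and Acot2 share 28.9% and 29.9% of theirs with each other. Over all other genes together, the shared part was 50.1% for Fabp3, 38.7% for Acot1 and 37.8% for Acot2. For Eci2, Acadm and Etfa it was 14.8%, 11.8% and 11.4%. The values of these members, and those of Cpt1b, Hadhb and Etfb, are uncertain for this reason. Acadvl shares 32.3% with Dvl2, which was expressed at 2.66 FPKM in control mice.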

How the data were processed

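Left ventricles of 12 ANG II-infused and 12 saline-infused mice were sequenced from oligo(dT)-selected RNA; further mice of the study were not analysed here. The authors deposited FPKM, with Bowtie2, HISAT and RSEM named in the processing notes without versions; the genome build is not given in the sources used here. The deposited values are FPKM on another scale than the methods describe: exact ties (at least 100 genes per pair of samples) and the spacing of values showed gene-wise shifts and scaling within 4 sets of samples. In the model of this step, 1 group difference per gene, common to the 4 sets, was left out of the scaling. Negative values were set to 0 for log2(FPKM + 1), and printed means and SD use the values as deposited. Tests covered the 14026 genes whose mean reached 0.1, with limma 3.58.1 (R 4.3.3, intensity trend, two-sided, Benjamini-Hochberg over all genes), without a set term. The group-by-set F test used the same scale. Differences before the adjustment were solved from steps of 0.01 FPKM and tested by exact permutation within sets (160000 relabelings, smallest p 1.25e-05); 13723 genes were solved. Scripts were tested on simulated data. Tables were made with numpy 2.4.6, scipy 1.17.1 and pandas 2.3.3 in Python 3.11.15, and figures with matplotlib 3.10.9.

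The members and all gene lists were chosen with earlier results of these data known, so no p-value over a list is given. Every member is accounted for; full values are given for members past the thresholds of the study and for 1 or more members of each role, and of other lists at most the 2 largest rises and falls are named, apart from those said to be chosen later. Promoter windows and positions are from RefSeq (GRCm38.p6) and GENCODE vM21. Alternatives were a pseudocount of 0.1, no filter or a mean of at least 1, quantile and median-ratio scaling, no trend, a Wilcoxon test, permutation within sets, the replicate number as a block, a set term, and leaving out each set or sample; the values before the adjustment and the 3 ratios were added after seeing the data. Depth per sample is unknown, and the number of mice sets the precision. The limma p-values measure the spread between these mice as left by the adjustment, which had used the group labels. How far that step narrowed the spread was not tested.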

Additional observations from a re-analysis of the deposited data

Results flagged for a closer look

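The ANG II effect on Pdk4 differed between the 4 sets of samples (limma interaction F test, adjusted p = 0.00231), with ANG II mice lower in set 2 (samples 4 to 6 of each group) and higher in the other 3 sets. The effect on Acacb differed as well (adjusted p = 0.0337 by the same limma test), with ANG II mice lower by 0.79 on the log2 scale in set 2 and differences from -0.09 to 0.07 elsewhere. The 3 samples per group in a set give each of these differences a wide error. Leaving out set 2, 0 members passed the test. A sample lying apart within its group was not looked for, since each group has more than 10 samples and each set has 3 per group.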

How the results depend on the processing

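Under 15 other settings and 24 fits that each left out 1 sample, no member changed direction while called, and 12 of the 23 called members kept their call throughout. The count of 23 lower members became 12 without set 2 (samples 4 to 6 of each group), a fit on 18 samples, and was between 17 and 23 in the other settings that did not leave out a single sample. Without set 2, 1 member (Pdk4) was higher, as was 1 (Fabp3) with quantile normalization; the cause was not tested. Members past the thresholds of the study were 8 with median-ratio scaling and 4 to 7 in the other settings. The interaction held for 2 members with a pseudocount of 0.1 and for 0 without set 2. Leaving out single samples gave 22 to 24 lower members, 0 higher, 5 to 7 past the thresholds, and medians from -0.30 to -0.23. Shares of all tested genes were counted for quantile and median-ratio scaling, without set 2 and before the adjustment. They were not counted for the other settings, where moves of the members cannot be set against those of all genes. With the replicate number as a block, 18 members were lower and 4 passed the thresholds. In that fit Acadm, Etfdh, Eci2, Acot2 and Ucp3 lost their call. The numbers did not pair the samples: deviations of same-numbered samples correlated from -0.56 to -0.00109 in 12 pairs, 0 of them over 0.1, and with the set means removed from -0.42 to 0.27, 1 over 0.1, and no sample (1 with set means removed) correlated best with its own number. The split of all calls moved from 2928 higher and 1769 lower to 1928 and 2921 with quantile normalization and 2394 and 2235 with median-ratio scaling. Sequencing depth and the offsets of the sets are unknown, which limits statements on low members such as Acot1 and Angptl4.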
